A study of Mus musculus with 9 samples.

Results

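CpG methylation in the nucleus accumbens of mice was examined at 8 nuclear genes that maintain mitochondrial DNA or shape the mitochondrial network, out of 34328 genes, protein-coding or for long noncoding RNA, placed on the autosomes and X. The genes were chosen by name for their role: Tfam, Polrmt, Tfb2m and Polg for transcription and copying of the mitochondrial genome, Ppargc1a for mitochondrial biogenesis, Mfn2 and Opa1 for fusion, and Dnm1l for fission. Calls were summed in each library within 1000 bp of each gene's start, over the gene body and over 1000-bp tiles, and were set beside the methylation read on the mitochondrial genome itself. No start window and no gene body of the 8 passed the test between groups, and in each the groups overlapped, while the mitochondrial genome read 3.06% ± 0.513 in Control libraries (SD, n = 5) and 12.4% ± 3.01 in Susceptible libraries (SD, n = 4).

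The series holds 9 whole-genome bisulfite libraries from male C57BL/6J mice aged 8 weeks, 5 labelled Control (replicates 2, 3, 4, 5 and 8) and 4 labelled Susceptible (replicates 2, 3, 6 and 7). The stressor was social defeat by a CD1 aggressor on 10 days, and the protocol text is the same on every library, so the sources used here do not give the handling of the Control mice or the scoring of susceptibility. DNA came from tissue punches, which mix cell types, so a difference in methylation within a cell type and a difference in the mix of cells cannot be told apart. The level of a region is the share of calls that stayed cytosine after bisulfite treatment, and methylated and hydroxymethylated cytosines are read alike. Unmethylated cytosines that the treatment left unconverted are read as methylated too, and no conversion rate was estimated here. The labels number the libraries and do not state that each came from its own mouse, so p-values measure the spread between these libraries.

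The mitochondrial genome is copied by the polymerase encoded by Polg and transcribed by the polymerase encoded by Polrmt, with Tfb2m to open the promoter and Tfam to bend and package the DNA. These proteins are made from nuclear genes, which are known to be switched on through the factors NRF1 and GABP, an ETS-family factor, and through the coactivator PGC-1α, the product of Ppargc1a. Mitofusin 2, the product of Mfn2, joins outer membranes, OPA1 joins inner membranes and keeps the cristae in shape, and DRP1, the product of Dnm1l, constricts and divides the organelle. In neurons these processes set how many mitochondria reach axons and dendrites.

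Listed calls per library ran from 313475624 to 430312082 in Control and from 432409939 to 570984634 in Susceptible, so every Susceptible library was deeper than every Control library. With the logarithm of listed calls as a covariate, 0 of the 8 start windows and 0 of the 8 gene bodies passed an adjusted p of 0.05, as without it. Since depth follows the groups, this fit cannot part depth from group. Each listed cytosine had at least 10 calls. The strands of a CpG disagreed by 2.42 to 6.11 times the binomial value in 7 libraries, but by 18.4 times in Control 5 and 19.7 times in Control 8, and differences that moved by over 1.5 times without those 2 libraries are given both ways for the starts, bodies and named tiles. Over the gene bodies of 10 striatal projection neuron genes the libraries read 42.0 to 46.3% in Control and 42.6 to 49.8% in Susceptible. The 7 cortical projection neuron genes read 36.0 to 41.6% and 35.7 to 40.2%, the 7 oligodendrocyte genes 67.3 to 73.3% and 67.9 to 72.0%, and the 6 astrocyte genes 69.4 to 75.0% and 64.7 to 71.0%. Microglial genes, 5 in all, read 77.2 to 79.8% and 75.9 to 78.7%, and 4 endothelial genes 63.6 to 65.4% and 62.3 to 65.3%. The groups overlapped in all 6 lists, and the part of cell mix in the results below was not tested.

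The 250 bases before the start were taken from RefSeq (GRCm38.p6) for all 8 genes, and 6 of these stretches are shown because the results turn on them. They stand before the start that RefSeq's promoter table lists first, which is not always the upstream end of the gene. The stretch of Dnm1l lies wholly inside the gene's RefSeq bounds, 213 to 462 bp after the upstream bound at position 16359038, and the table lists a further Dnm1l start at 16359031. Those of Tfam (34 to 283 bp after the bound), Polg (1388 to 1637 bp) and Ppargc1a also lie wholly inside, as do 13.1% of all 26794 such stretches, whereas those of Polrmt, Tfb2m and Opa1 lie inside by 23, 29 and 53 bp and that of Mfn2 lies outside. They are given in lower case, 5′ to 3′ in the direction of the gene. Capitals mark exact matches on either strand to the ETS word CCGGAAG, the NRF1 word GCATGCGC and the CRE half-site CGTCA, the last of which CREB-family factors bind. Tfam lies on the minus strand (chr10:71238045-71238294), as do Polrmt (chr10:79746582-79746831), Tfb2m (chr1:179546277-179546526), Ppargc1a (chr5:51567726-51567975) and Dnm1l (chr16:16358576-16358825), and Opa1 lies on the plus strand (chr16:29579084-29579333).
Tfam: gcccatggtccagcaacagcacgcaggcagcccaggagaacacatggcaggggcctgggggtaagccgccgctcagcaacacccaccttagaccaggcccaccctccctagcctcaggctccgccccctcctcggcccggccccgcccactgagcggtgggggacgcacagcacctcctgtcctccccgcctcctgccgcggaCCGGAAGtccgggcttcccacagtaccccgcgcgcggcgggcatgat
Polrmt: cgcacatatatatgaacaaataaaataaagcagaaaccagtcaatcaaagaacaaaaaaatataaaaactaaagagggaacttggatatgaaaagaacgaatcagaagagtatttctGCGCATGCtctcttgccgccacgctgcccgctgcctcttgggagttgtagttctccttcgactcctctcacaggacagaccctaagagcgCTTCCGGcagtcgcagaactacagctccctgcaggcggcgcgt
Tfb2m: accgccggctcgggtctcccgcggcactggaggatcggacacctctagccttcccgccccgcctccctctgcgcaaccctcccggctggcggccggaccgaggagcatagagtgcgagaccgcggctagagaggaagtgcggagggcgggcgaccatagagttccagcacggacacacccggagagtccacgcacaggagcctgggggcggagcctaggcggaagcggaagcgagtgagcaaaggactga
Ppargc1a: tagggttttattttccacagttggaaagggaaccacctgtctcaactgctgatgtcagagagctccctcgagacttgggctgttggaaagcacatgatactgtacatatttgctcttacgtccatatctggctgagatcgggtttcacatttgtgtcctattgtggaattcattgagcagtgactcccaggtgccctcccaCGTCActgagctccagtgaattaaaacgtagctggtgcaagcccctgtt
Opa1: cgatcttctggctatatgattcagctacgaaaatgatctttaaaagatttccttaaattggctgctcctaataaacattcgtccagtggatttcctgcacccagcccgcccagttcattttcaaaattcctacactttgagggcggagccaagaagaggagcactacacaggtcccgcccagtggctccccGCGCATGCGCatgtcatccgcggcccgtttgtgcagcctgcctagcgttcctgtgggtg
Dnm1l: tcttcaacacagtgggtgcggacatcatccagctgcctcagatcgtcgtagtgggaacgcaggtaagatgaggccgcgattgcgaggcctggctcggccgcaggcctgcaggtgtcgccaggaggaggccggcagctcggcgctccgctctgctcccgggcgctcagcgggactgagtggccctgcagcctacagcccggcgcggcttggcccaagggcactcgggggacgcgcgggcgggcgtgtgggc

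The stretches differed widely in CpGs. Dnm1l and Tfb2m held 26 CpGs each in the 250 bases, Polg 21, Tfam 19, Mfn2 16, Polrmt and Opa1 13 each, and Ppargc1a only 5. The ETS word occurred in Tfam, Polg and Polrmt, 3 of the 8 genes, and in 7.11% of 26794 promoters of the same length. The NRF1 word occurred in Polrmt and, as 2 overlapping matches on opposite strands, in Opa1, against 2.32% of all promoters. The CRE half-site occurred in Polg, Ppargc1a and, at 2 places, in Mfn2, against 17.97% of all promoters. Tfb2m and Dnm1l held none of the 3 words in these stretches, and the sequence before the upstream bound of Dnm1l was not searched. The CpG inside the ETS match of Tfam had 0 methylated of 152 Control calls, which allows up to 1.97%, and 2.08% of 192 Susceptible calls. In Polrmt the ETS CpG had 0 of 104 Control calls, which allows up to 2.88%, and 2.76% of 181 Susceptible calls, and in Polg it had 0 of 92 and 0 of 143 calls, which allows up to 3.26% and 2.10%. Both NRF1 CpGs of Opa1 had 0 methylated calls in each group, on 91 to 108 calls, which allows up to 2.78 to 3.30%. The CRE half-site of Ppargc1a stood apart from the other matches, with 53.8% of 104 Control calls and 66.7% of 78 Susceptible calls methylated. It was listed in 7 libraries, not in Control 2 or Control 5. The groups overlapped there, at 43.5 to 66.7% in Control and 56.25 to 75% in Susceptible libraries. Intervals and limits of this kind cover counting error only, since reads of 1 molecule cannot be told apart.

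Within 1000 bp of the start, the 4 genes of mitochondrial transcription and replication fell into a low pair, Polg and Tfb2m, and a more variable pair, Tfam and Polrmt. At Polg (start at position 79466273 of chromosome 7, 107 to 147 CpGs), the catalytic subunit of the mitochondrial DNA polymerase, Control libraries 2, 3, 4, 5 and 8 read 2.05%, 1.45%, 0.998%, 1.19% and 1.44%, and Susceptible libraries 2, 3, 6 and 7 read 1.64%, 1.62%, 1.80% and 1.86%. Control 2 was the highest of all 9, and the other 4 Control libraries lay below every Susceptible library. The means were 1.42% ± 0.399 and 1.73% ± 0.117 (odds ratio 1.196, 95% interval 0.790 to 1.81, adjusted p = 0.977 in the moderated quasi-binomial model). The window holds a tRNA gene, n-TRtcg5, 73 bp long.

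At Tfb2m (start 179546276 of chromosome 1, 78 to 131 CpGs), the transcription factor that melts mitochondrial promoters, the Control libraries read 1.70%, 2.33%, 1.39%, 2.16% and 1.85% and the Susceptible libraries 2.31%, 2.24%, 1.501% and 1.85%. The groups covered nearly the same range, with means of 1.89% ± 0.370 and 1.97% ± 0.376 (odds ratio 1.07, 95% interval 0.721 to 1.595, adjusted p = 0.990). The window is shared with Cnst, which starts 253 bp away on the opposite strand, so the values belong to both genes.

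Tfam, the packaging protein of mitochondrial DNA (start 71238044 of chromosome 10, 68 to 83 CpGs), read 6.28%, 2.01%, 5.26%, 11.8% and 9.53% in Control and 4.83%, 4.89%, 5.41% and 3.95% in Susceptible. Control 3 was the lowest and Control 5 and Control 8 the highest of the 9 libraries, so the Susceptible libraries lay inside the Control range. The means were 6.97% ± 3.80 and 4.77% ± 0.606 (odds ratio 0.733, 95% interval 0.428 to 1.26, adjusted p = 0.972). Without Control 5 and Control 8 the difference changed sign, from -2.20 to 0.252 percentage points.

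Polrmt, the mitochondrial RNA polymerase (start 79746581 of chromosome 10, 31 to 50 CpGs), read 17.2%, 26.1%, 15.3%, 31.2% and 26.1% in Control and 15.6%, 15.3%, 20.03% and 18.8% in Susceptible. Control 3, 5 and 8 lay above all Susceptible libraries, and Control 2 and 4 lay among them. The means were 23.2% ± 6.68 and 17.4% ± 2.35 (odds ratio 0.774, 95% interval 0.534 to 1.12, adjusted p = 0.972). The difference of -5.74 points was -3.74 without Control 5 and -2.11 without Control 5 and Control 8. It was -12.2 over the CpGs listed in all 9 libraries and -19.3 over cytosines with at least 20 calls (adjusted p 0.921 and 0.917). With each of the 15 CpGs listed in all 9 libraries weighted equally, it was -3.18 points. In bins of 200 bp, the window joined a stretch near 1% at the start to flanks that read from 31.3 to 69.0% at 400 to 600 bp before it and from 40% to 100% at 600 to 800 bp after it.

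**Figure D1:**
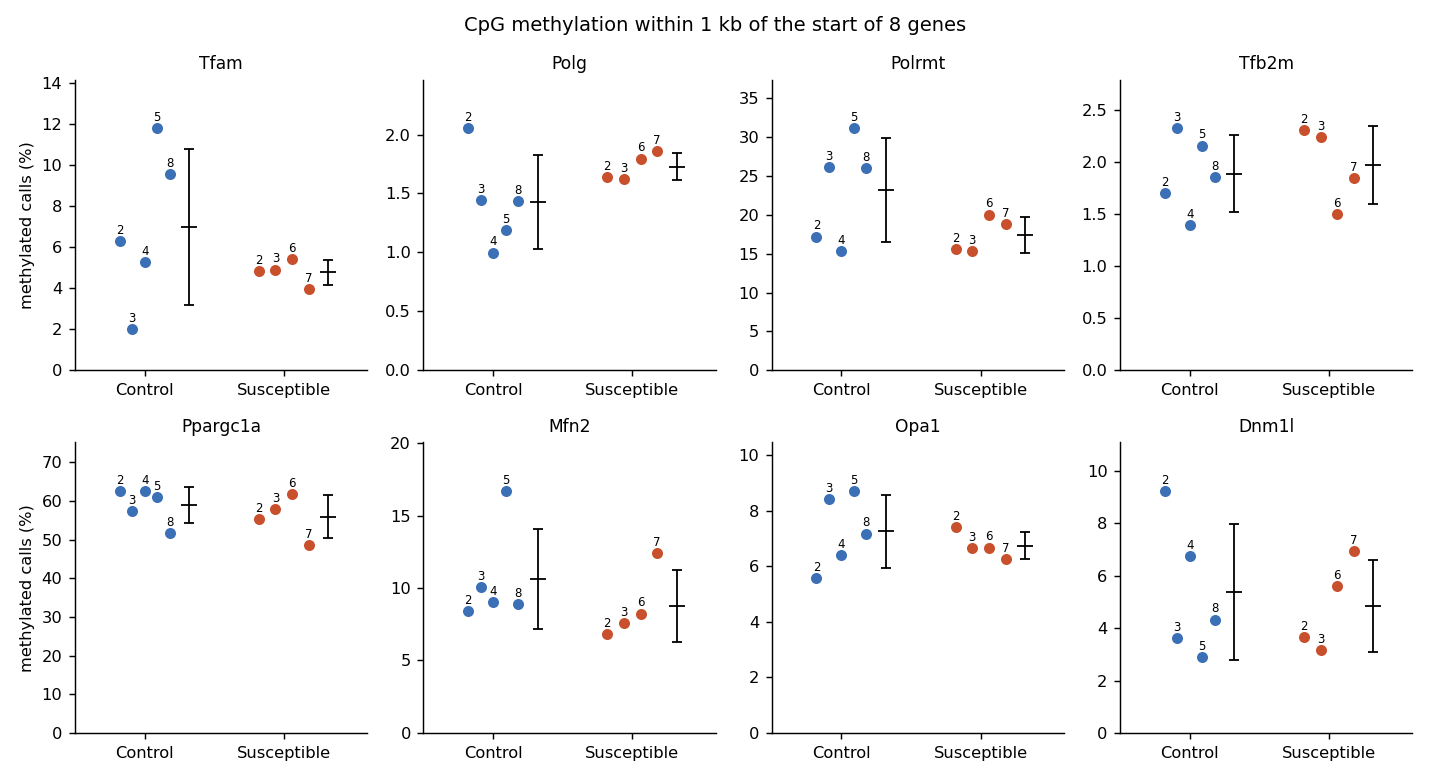
Methylated calls (%) within 1000 bp of the start of each of the 8 genes, 1 panel per gene with its own axis from 0. Points are libraries with their replicate numbers, and bars are the group mean and SD (Control n = 5, Susceptible n = 4). The groups overlap in every panel, and Control 5 stands far above the other Control libraries at Mfn2 (16.7%).

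The start of Ppargc1a, the coactivator of biogenesis, was the most methylated of the 8. Its window (start 51567725 of chromosome 5) had 8 to 17 CpGs and 248 to 606 calls, and read 62.6%, 57.3%, 62.6%, 60.9% and 51.6% in Control and 55.2%, 57.8%, 61.8% and 48.6% in Susceptible. The lowest values were Control 8 and Susceptible 7, and the remaining libraries of both groups mixed between 55.2% and 62.6%. The means were 59.0% ± 4.66 and 55.9% ± 5.54 (odds ratio 0.899, 95% interval 0.628 to 1.29, adjusted p = 0.983). The difference of -3.13 points was -0.709 without Susceptible 7, -4.97 without Control 8 and -5.11 without Susceptible 6. This start lies inside the bounds that RefSeq gives the gene, positions 51454249 to 52115853, and Ppargc1a is known to have further promoters upstream, including one used in brain. Around the upstream bound, 102 to 141 CpGs were listed and the Control libraries read 1.45%, 1.05%, 1.01%, 0.784% and 0.748% against 1.14%, 1.73%, 1.38% and 1.49% in Susceptible. The means there were 1.01% ± 0.283 and 1.43% ± 0.246, the groups overlapped through Control 2 alone, and the window was chosen after the values of the gene had been seen.

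Among the genes of fusion and fission, all 3 starts were low and none separated the groups. Mfn2 (start 147904909 of chromosome 4, 45 to 65 CpGs) read 8.41%, 10.1%, 9.02%, 16.7% and 8.90% in Control and 6.83%, 7.58%, 8.23% and 12.4% in Susceptible. The 3 lowest libraries were Susceptible, but Susceptible 7 was second only to Control 5. The means were 10.6% ± 3.45 and 8.76% ± 2.49 (odds ratio 0.815, 95% interval 0.544 to 1.22, adjusted p = 0.977). The difference of -1.86 points was -0.339 without Control 5 and -0.404 without Control 5 and Control 8.

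Opa1 (start 29579334 of chromosome 16, 44 to 62 CpGs) read 5.57%, 8.41%, 6.40%, 8.72% and 7.18% in Control and 7.41%, 6.66%, 6.67% and 6.25% in Susceptible. All Susceptible libraries lay within the Control range, with means of 7.25% ± 1.33 and 6.75% ± 0.485 (odds ratio 0.957, 95% interval 0.714 to 1.28, adjusted p = 0.992). Dnm1l (start 16358575 of chromosome 16, 45 to 68 CpGs) read 9.24%, 3.63%, 6.75%, 2.90% and 4.33% in Control and 3.65%, 3.15%, 5.60% and 6.94% in Susceptible. Control libraries held both the highest and the lowest value, and the means were 5.37% ± 2.60 and 4.84% ± 1.75 (odds ratio 0.894, 95% interval 0.517 to 1.55, adjusted p = 0.988). The difference of -0.533 points was -3.03 with replicates 2 and 3 alone, as a block (unadjusted p = 0.0229, adjusted p = 0.865).

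Of the 8 start windows, 0 passed an adjusted p of 0.05 and 0 had groups that did not overlap. Over all 30931 start windows tested, 0% passed and 1.85% did not overlap (0.957% with Susceptible higher and 0.889% lower), and 4.77% had an unadjusted p under 0.05, which none of the 8 reached. By their libraries the genes ordered as Polg and Tfb2m, which overlapped each other, then Dnm1l, Tfam, Opa1 and Mfn2, which overlapped each other and of which only Tfam, through Control 3, reached down to the first pair, then Polrmt, which met Mfn2 only through Control 5 of Mfn2, and Ppargc1a above all. Against protein-coding genes, 9.56% had lower starts than Polg and 71.2% had lower starts than Ppargc1a. The direction turned with the size of the window at all 8. Within 500 bp of the start the Susceptible mean was the higher at all 8, by 0.0254 points at Mfn2 to 0.719 points at Ppargc1a (adjusted p 0.910 to 0.996). Over all genes tested it was the higher at 14984 of 27907 within 500 bp, against 14679 of 30931 within 1000 bp. Among the other genes of the pathway, described below, it was the higher at 36 of 53 within 500 bp. Within 1000 bp it was the higher only at Polg and Tfb2m of the 8, and at those 2 it was the lower within 2000 bp (differences of -2.90 and -2.14 points). Without Control 5 and Control 8 the differences within 1000 bp were 0.228 points at Polg, 0.166 at Tfb2m, -1.70 at Dnm1l, -0.0432 at Opa1 and -4.95 at Ppargc1a, and 0 of the 8 passed. Single libraries moved the other starts too. The difference ran from -3.44 without Control 3 to -1.002 without Control 5 at Tfam, from -0.929 without Control 2 to -0.141 without Control 5 at Opa1, and from 0.197 without Control 4 to 0.461 without Control 2 at Polg. It ran from -3.07 without Susceptible 7 to -0.339 without Control 5 at Mfn2, from -1.23 without Susceptible 7 to 0.435 without Control 2 at Dnm1l, and from -0.0368 without Control 4 to 0.245 without Susceptible 6 at Tfb2m. Over CpGs that all 9 libraries list, calls pooled, the difference was -2.41 at Opa1, -0.890 at Mfn2, 0.576 at Polg and 0.428 at Tfb2m. With each of these CpGs weighted equally it was 0.0165 at Opa1, -0.798 at Mfn2, 0.404 at Polg and 0.934 at Tfb2m.

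The low stretch around each start differed in length. In consecutive bins of 200 bp that averaged below 20% over the 9 libraries, it ran from 800 bp before to 1200 bp after the start at Polg, from 400 bp before to 600 bp after at Tfam, and from 600 bp before to 400 bp after at Tfb2m. At Dnm1l it ran from 600 bp before to 200 bp after, at Opa1 and Polrmt from 200 bp before to 400 bp after, and at Mfn2 over the 600 bp after the start. Such a stretch was counted only as far as every library had 20 calls in a bin, so its ends are partly set by coverage. Ppargc1a had no such bin at its start.

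**Figure D2:**
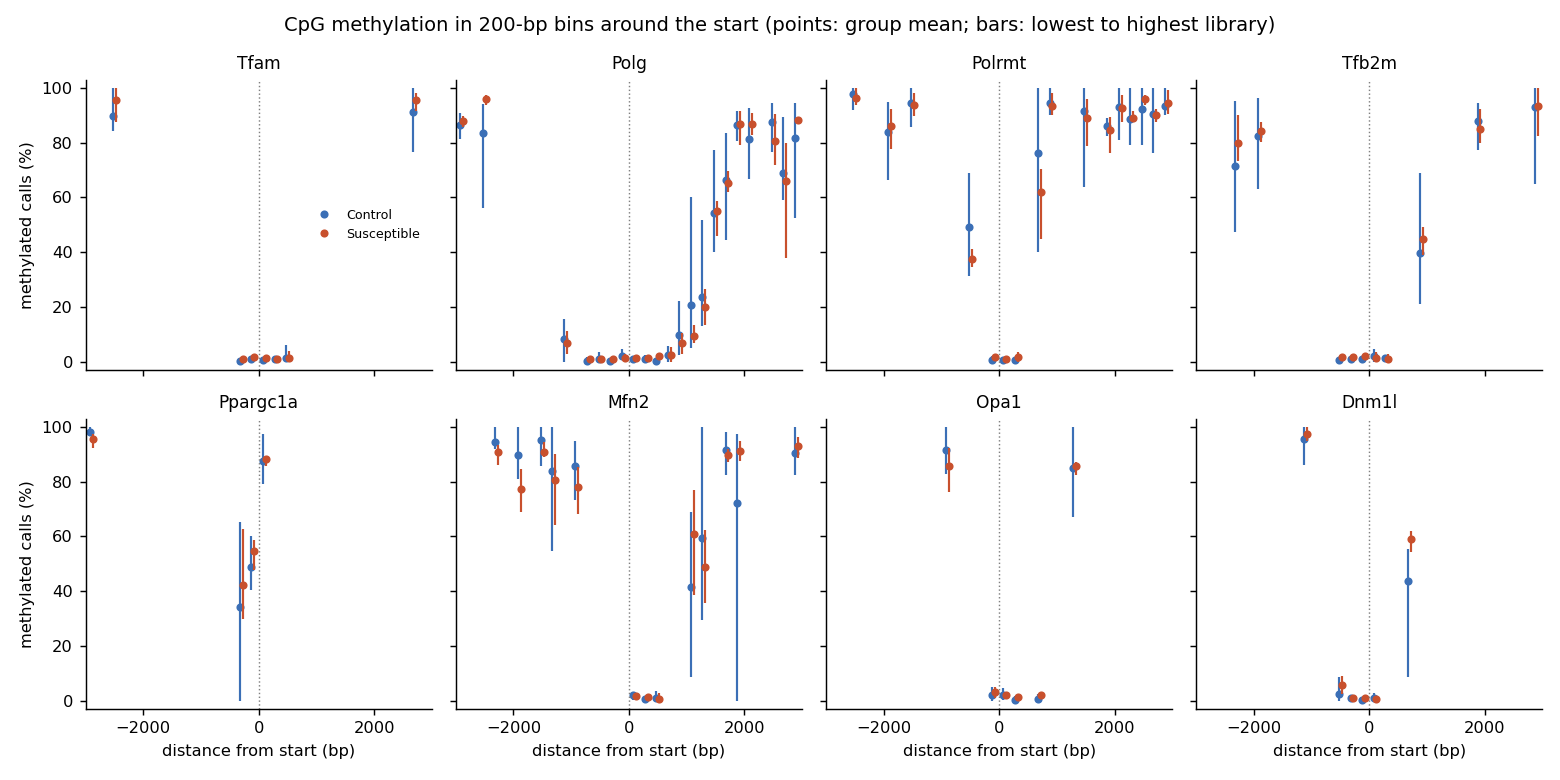
Methylated calls (%) in bins of 200 bp from 3000 bp before to 3000 bp after the start (x axis, bp in the direction of the gene). Points are group means and bars run from the lowest to the highest library, and bins where any library had under 20 calls are left out. The low stretch at the start is seen in 7 genes, is longest in Polg at 2000 bp, and is absent from Ppargc1a.

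In the 250 bp before the start, a window added after the values around the starts had been seen, the Susceptible mean was the higher at 5 of the 6 genes with enough CpGs to test. Over all 12425 such windows tested it was the higher in 58.7%. Dnm1l, whose window lies inside the gene after its outermost start, read 0.517%, 0.221%, 0.426%, 0.204% and 0% in Control, the last of which allows up to 0.418%, and 1.29%, 0.998%, 0.893% and 1.17% in Susceptible. The groups did not overlap, with 12 of 4315 Control calls and 70 of 6346 Susceptible calls methylated. The means were 0.274% ± 0.203 and 1.09% ± 0.178 (odds ratio 3.87, 95% interval 1.32 to 11.3, unadjusted p = 0.00708, adjusted p = 0.748 in the moderated quasi-binomial model).

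Tfb2m read 1.47%, 1.37%, 0.619%, 0.244% and 0.624% in Control and 1.76%, 2.04%, 1.73% and 1.72% in Susceptible. Its window lies between the opposite starts of Tfb2m and Cnst and overlaps the bounds of Cnst, so the values belong to both genes. Here too no Susceptible library reached down to the Control range, and the means were 0.865% ± 0.529 and 1.81% ± 0.155 (odds ratio 1.79, 95% interval 0.909 to 3.51, adjusted p = 0.778). These 2 of 6 stand against 2.86% of all 12425 such windows tested, 2.52% with Susceptible higher and 0.338% lower, and against 0% that passed an adjusted p of 0.05 and 6.54% with an unadjusted p under 0.05. In the 250 bp before the upstream gene bound in place of the start, also added after the values had been seen, neither gene had groups apart. Tfb2m read 1.84%, 1.55%, 0.913%, 0.416% and 0.514% in Control and 1.73%, 1.78%, 1.503% and 1.87% in Susceptible there (adjusted p = 0.828), so that Control 2 and Control 3 reached the Susceptible range. Dnm1l had only 2 to 8 CpGs there and was not tested, with 2.96% ± 3.49 and 7.56% ± 2.35. Of all 11207 windows tested before such bounds, 2.73% had groups apart (2.34% with Susceptible higher and 0.393% lower), 6.29% had an unadjusted p under 0.05 and 0% passed an adjusted p of 0.05.

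Tfam averaged 0.769% ± 0.564 and 1.52% ± 0.516, Polrmt 0.495% ± 0.849 and 1.76% ± 0.841, and Opa1 1.95% ± 2.26 and 3.26% ± 1.51 in Control and Susceptible libraries. Polg, whose window holds the tRNA gene n-TRtcg5, was the exception, at 1.503% ± 1.30 and 1.29% ± 1.10. In each of these 4 genes the groups overlapped, and the adjusted p ran from 0.792 to 0.980. Without Control 5 and Control 8 the difference went from 0.749 to 0.483 points at Tfam, from 1.31 to 2.74 at Opa1 and from -0.208 to 0.151 at Polg. With only the CpGs that all 9 libraries list, the difference was 0.245 points at Polrmt against 1.26, 0.508 at Dnm1l against 0.816, and 1.13 at Tfam. With replicates 2 and 3 alone, as a block, it was 0.484 at Tfb2m against 0.949 and 0.446 at Tfam. Leaving out 1 library gave 0.786 (without Susceptible 6) to 2.22 (without Control 8) at Opa1 and -0.537 (without Susceptible 7) to 0.331 (without Control 5) at Polg. The other alternatives ran from -1.76 to 0.287 points at Polg. Ppargc1a averaged 49.0% ± 8.34 and 54.7% ± 4.75 and Mfn2 1.11% ± 2.48 and 0.338% ± 0.676, and neither had 3 CpGs in each library, so they were not tested.

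All 6 tested genes belong to a class of 8120 promoters whose level in this window averaged below 3%, of which 17.8% have the window wholly inside the gene's bounds. The class, like the window, was chosen after the values had been seen. Over all calls in that class the Control libraries read 1.19%, 1.09%, 1.09%, 1.10% and 1.05% and the Susceptible libraries 1.37%, 1.40%, 1.2002% and 1.28%. No Susceptible library reached down to the Control range, the difference of 0.211 points had a two-sided exact permutation p of 0.00794, which is the smallest that 126 splits can give, and 66.4% of the promoters had the higher mean in Susceptible. Every Susceptible library was also deeper than every Control library, and no depth covariate entered here. Within the class the groups were apart with Susceptible higher at 3.49% and with Susceptible lower at 0.16%. Without Control 5 and Control 8 the difference was 0.190 points with an exact permutation p of 0.0571, and the groups stayed apart. Fewer splits are possible with 3 Control and 4 Susceptible libraries, so this p cannot fall as low as that of all 9. It was also not the smallest that those splits can give, since another split gave a larger difference, so the result was weaker. The median promoter of the class differed by 0.566 points over all 9 libraries and by 0.306 points without Control 5 and Control 8. The higher Susceptible values before Dnm1l and Tfb2m stood beside this difference of the whole class, and whether the 2 genes differed more than their class was not tested.

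On the mitochondrial genome, 223 or 224 CpGs with 913027 to 2038090 calls were listed per library. Control libraries read 3.62%, 2.33%, 3.23%, 3.35% and 2.76%, and Susceptible libraries 14.7%, 15.1%, 10.8% and 8.96%. The gap of 9.32 points left the groups far apart (two-sided exact permutation p = 0.00794, again the smallest possible and without a depth covariate). On the autosomes the same libraries read 74.5 to 77.1%, with no such gap. Side by side with it, the start windows of the 8 genes differed by -5.74 points at Polrmt (-2.11 without Control 5 and Control 8) to 0.303 at Polg, and the 250-bp windows of the 6 tested genes by -0.208 to 1.31 points. Susceptible 2 and 3 were the highest libraries on the mitochondrial genome, in the class of low promoters and before Tfb2m, whereas before Dnm1l the highest were Susceptible 2 and 7. The other tested genes had other orders. The highest library was Susceptible 6 before Tfam (1.88%) and Polrmt (2.61%), Control 8 before Opa1 (5.57%) and Control 5 before Polg (3.66%). Since each group forms its own cluster of under 6 libraries on the mitochondrial level, no relation across libraries was tested.

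**Figure D3:**
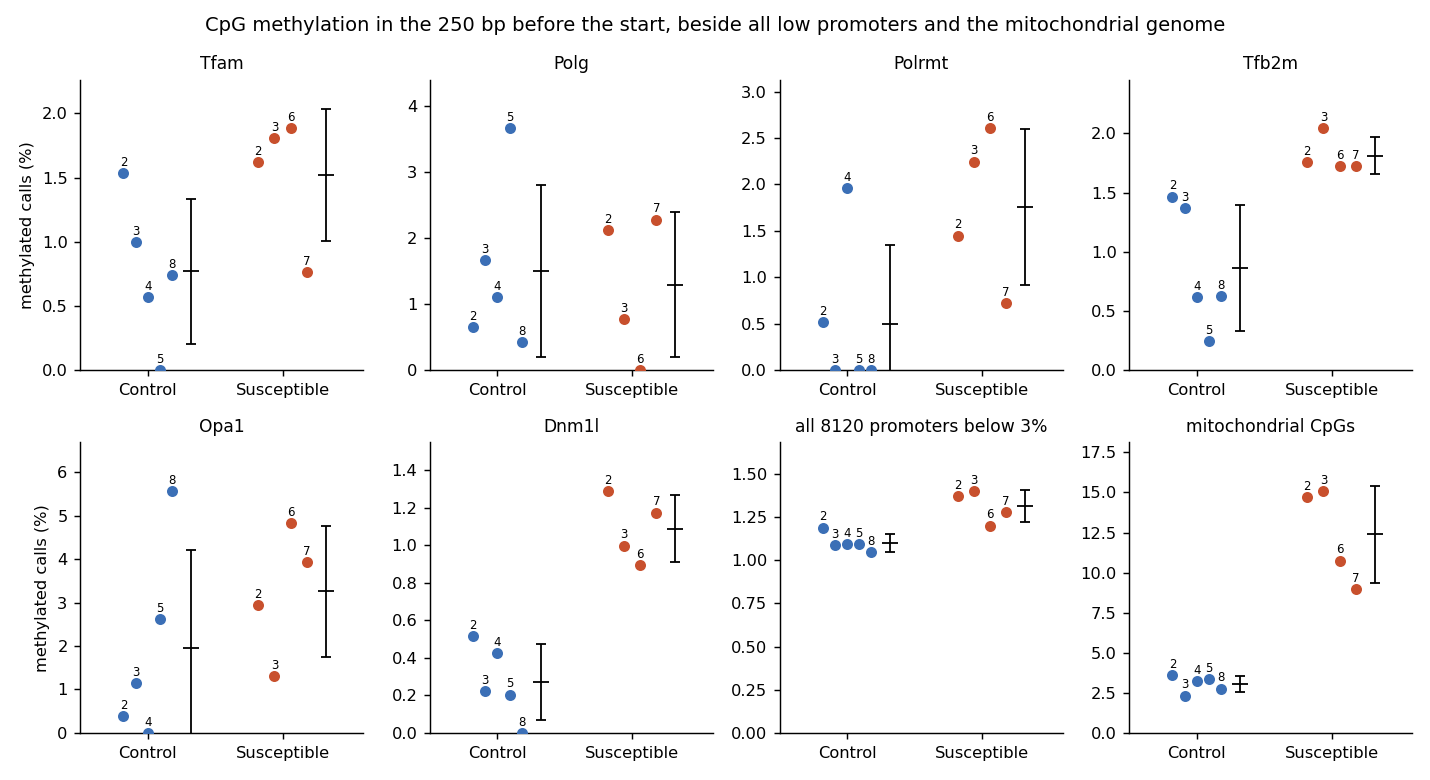
Methylated calls (%) in the 250 bp before the start of the 6 genes tested, over all 8120 promoters below 3%, and over the CpGs of the mitochondrial genome, each panel with its own axis from 0. Points are libraries with their replicate numbers, and bars are the group mean and SD, drawn down to 0 where the SD exceeds the mean. The groups are apart before Dnm1l and Tfb2m, in the class of low promoters and on the mitochondrial genome, and overlap before Tfam, Polg, Polrmt and Opa1.

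The gene bodies read far higher than the starts, and again 0 of the 8 passed an adjusted p of 0.05 or had groups apart. Over all 32376 bodies tested, 0% passed, 1.61% were apart (0.476% with Susceptible higher and 1.14% lower), and the Susceptible mean was the lower by a median of 0.388 points. Polrmt, the shortest at 10480 bp, was the most methylated. Its Control libraries read 80.8%, 87.3%, 82.6%, 88.9% and 88.7% and its Susceptible libraries 82.9%, 83.7%, 84.6% and 82.4% (85.6% ± 3.74 and 83.4% ± 0.982, adjusted p = 0.993). The difference of -2.24 points was -0.123 without Control 5 and Control 8, -1.41 without Control 5 alone and -3.45 without Control 2. It was -1.15 over CpGs listed in all 9 libraries and -3.62 over cytosines with at least 20 calls. Over the part of the body from 1000 bp after the start on it was -0.624. Polg, over 21681 bp, read 53.2%, 50.2%, 52.5%, 58.3% and 52.2% in Control and 49.6%, 49.5%, 53.3% and 49.2% in Susceptible (53.3% ± 3.01 and 50.4% ± 1.93). Only Susceptible 6 reached the Control range, and the difference of -2.86 points was -1.55 without Control 5 and Control 8, -1.61 without Control 5 alone and -6.34 over cytosines with at least 20 calls. Tfam, over 12861 bp, read 49.9%, 46.4%, 40.1%, 43.4% and 44.5% in Control and 44.2%, 43.9%, 41.0% and 37.3% in Susceptible (44.9% ± 3.61 and 41.6% ± 3.22). Its difference of -3.22 points was -1.78 without Susceptible 7, -1.97 without Control 2 and 0.282 over the part from 1000 bp after the start on.

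Tfb2m, over 18254 bp, was the most scattered body, with 52.3%, 69.2%, 54.1%, 68.9% and 52.8% in Control and 61.8%, 57.4%, 48.1% and 59.2% in Susceptible (59.5% ± 8.77 and 56.6% ± 5.99). Its difference of -2.84 points ran from -4.61 without Control 2 to 0.0142 without Susceptible 6, and was -0.406 without Control 3 and -0.478 without Control 5. Ppargc1a, by far the longest at 661605 bp and with 73743 to 135813 calls, read 79.2%, 79.7%, 77.3%, 82.0% and 77.2% in Control and 79.5%, 78.4%, 81.0% and 76.7% in Susceptible (79.1% ± 1.95 and 78.9% ± 1.84). Its odds ratio of 1.01 had the interval from 0.882 to 1.15 and the groups mixed. Its difference of -0.172 points ran from -0.884 without Susceptible 6 to 0.577 without Susceptible 7. It was -1.16 over cytosines with at least 20 calls. Over the part from 1000 bp after the start on, which leaves out the body before the start, it was -1.34. Mfn2, over 31324 bp, was the only body with the higher mean in Susceptible, at 76.1%, 74.2%, 71.8%, 76.0% and 70.2% in Control and 74.1%, 74.5%, 78.0% and 75.2% in Susceptible (73.6% ± 2.61 and 75.4% ± 1.75). Its difference of 1.80 points was 0.940 without Control 8, 0.959 without Susceptible 6, 0.0115 without the 1000 bp next to the start and -0.841 with replicates 2 and 3 alone, as a block. Opa1, over 83847 bp, read 74.1%, 77.0%, 76.0%, 80.0% and 74.0% in Control and 74.4%, 75.4%, 75.1% and 73.7% in Susceptible (76.2% ± 2.47 and 74.7% ± 0.775). Its difference of -1.54 points was -0.600 without Control 5 and -0.627 in the block of replicates 2 and 3, in which that of Polrmt was -0.700, that of Tfb2m -1.16 and that of Ppargc1a -0.481.

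Dnm1l showed the largest difference of the 8 bodies. Over 46811 bp with 144 to 185 CpGs, the Control libraries read 58.4%, 53.9%, 59.1%, 48.7% and 53.3% and the Susceptible libraries 44.9%, 42.8%, 54.4% and 49.3%. Susceptible 2 and 3 were the lowest, while Susceptible 6 lay above 3 Control libraries. The means were 54.7% ± 4.26 and 47.9% ± 5.14 (odds ratio 0.756, 95% interval 0.593 to 0.963, unadjusted p = 0.0274, adjusted p = 0.993), and 4.73% of all bodies had an unadjusted p under 0.05. Over the part of the body from 1000 bp after the start on, which also leaves out the stretch up to the upstream bound, the difference was -0.342 points. Over the 54 CpGs listed in all 9 libraries the result turned on the weights. With their calls pooled the difference was -6.48 points (unadjusted p = 0.0256, adjusted p = 0.991), close to the -6.82 of the whole body, whereas with each CpG weighted equally Dnm1l read 38.6% ± 0.263 in Control and 38.0% ± 1.01 in Susceptible. Over cytosines with at least 20 calls the difference was -11.98 points, and with replicates 2 and 3 alone, as a block, it was -12.3 (adjusted p 0.883 and 0.9993).

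**Figure D4:**
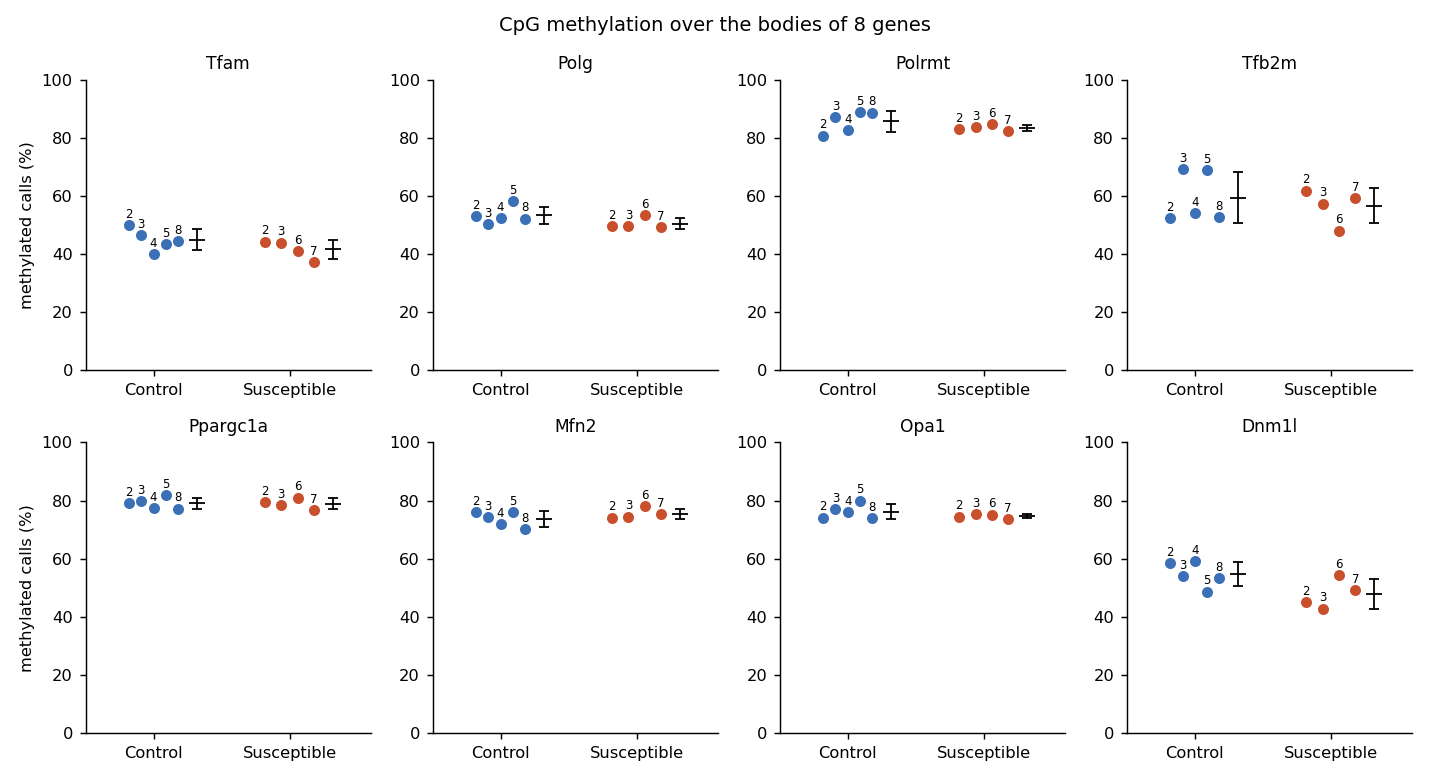
Methylated calls (%) over the body of each of the 8 genes, all panels from 0 to 100%. Points are libraries with their replicate numbers, and bars are the group mean and SD (Control n = 5, Susceptible n = 4). Polrmt is the highest (85.6% and 83.4%), Tfb2m spreads most within a group, and Dnm1l has the widest gap between means (54.7% and 47.9%) with groups that overlap.

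In 1000-bp tiles the 8 genes were high with few breaks. Of 898 tiles that overlap them, 465 passed the minimum of 3 CpGs and 20 calls per library, and 422 of these averaged 60% or more, 26 from 20 to 60% and 17 below 20%. The low tiles lay at each start except that of Ppargc1a, and away from the starts in Ppargc1a and Opa1. Ppargc1a had 3 tiles near 1% at its upstream bound (positions 52113001 to 52116000, means over all libraries of 0.875 to 1.52%). It had 2 more inside the gene, 14.2 and 15.2 kb after the start (positions 51552001 to 51554000), where Control averaged 6.96% ± 4.65 and 8.44% ± 10.1 and Susceptible 5.40% ± 1.596 and 4.32% ± 1.602. Opa1 had a tile 78.2 kb after its start (positions 29657001 to 29658000) at 15.9% ± 2.47 and 15.4% ± 3.67. The exon or intron status of these tiles was not analysed here.

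No tile of the 465 passed an adjusted p of 0.05, beside 0% of the 1041809 tiles of the genome, and 27 (5.81%) had an unadjusted p under 0.05 against 4.38% of all tiles. The groups were apart in 8 tiles (1.72%, against 1.56% of all), 3 with Susceptible higher and 5 lower, against 0.598% and 0.96% of all tiles. The median difference was -0.220 points against -0.181 over all tiles. The shares in the 8 genes were near those of the genome.

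The tiles whose groups were apart lay in Ppargc1a (6), Mfn2 and Tfb2m. The largest differences were in Ppargc1a, at 188.8 kb before the start (position 51756001, 73.8%, 68.0%, 76.6%, 63.2% and 81.0% against 82.9%, 83.2%, 84.8% and 86.8%) and at 290.8 kb before it (position 51858001, 87.4%, 88.7%, 65.7%, 82.7% and 82.9% against 92.7%, 92.7%, 94.8% and 90.1%). They amounted to 11.9 and 11.1 points, on 5 to 10 and 3 to 4 CpGs, and the second was 7.14 points without Control 4 and 4.65 with replicates 2 and 3 alone, as a block. At 51.8 kb before the start (position 51619001), Control read 93.2%, 89.7%, 84.2%, 93.3% and 90.0% and Susceptible 98.4%, 96.9%, 96.7% and 96.7%, the smallest p in the gene (difference 7.11 points, unadjusted p = 0.00372, adjusted p = 0.997). The opposite direction was seen at 18.8 kb before the start (position 51586001), with 97.1% ± 1.36 in Control and 90.9% ± 3.92 in Susceptible, and at 493.8 kb before it (position 52061001), with 88.8% ± 2.07 and 82.7% ± 4.16, where the difference of -6.09 points was -4.03 without Susceptible 6 and -2.20 in the block of replicates 2 and 3.

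In Mfn2 the tile at 17.4 kb after the start (position 147887001) had the smallest p of the gene. It read 96.1%, 95.01%, 95.05%, 98.2% and 100% in Control and 91.2%, 93.2%, 91.1% and 92.2% in Susceptible, a difference of -4.92 points (adjusted p = 0.997). The other 2 tiles with groups apart are named after their values were seen: position 179538001 in Tfb2m, at 94.3% ± 1.63 and 91.5% ± 1.40, and position 52086001 in Ppargc1a, at 91.7% ± 4.82 and 86.5% ± 0.664.

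For the remaining genes the tile of smallest p overlapped between groups. In Polg it lay 3.77 kb after the start (position 79462001, 68.0% ± 12.2 and 76.3% ± 3.38), in Polrmt 1.08 kb after it (position 79745001, 89.8% ± 7.57 and 82.6% ± 3.35) and in Opa1 69.2 kb after it (position 29648001, 93.8% ± 1.44 and 97.0% ± 1.07). In Tfam it was the first tile beyond the one that holds the start, inside the gene, at 5.52% ± 4.10 and 3.30% ± 0.590. In Tfb2m and Dnm1l it was the tile that holds the start, at 1.07% ± 0.571 and 1.47% ± 0.232, and at 0.566% ± 0.345 and 1.06% ± 0.252. The adjusted p was 0.997 in each of these 6. Without Control 5 and Control 8 the difference was -2.05 points in the tile of Polrmt against -7.24, -0.00932 in that of Tfam against -2.22, 0.184 in that of Tfb2m against 0.404 and 0.250 in that of Dnm1l against 0.492. The difference of 8.30 points in the tile of Polg was 4.19 without Control 8 and 12.6 without Control 5. In the tile of Tfam it ran from -3.44 without Control 3 to -0.739 without Control 5, and in that of Tfb2m it was 0.172 without Control 8. In the block of replicates 2 and 3 it was 0.152 in that of Dnm1l, 1.12 in that of Tfam and 0.291 in that of Polrmt. In that of Opa1 it was 2.004 points over cytosines with at least 20 calls, against 3.15.

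**Figure D5:**
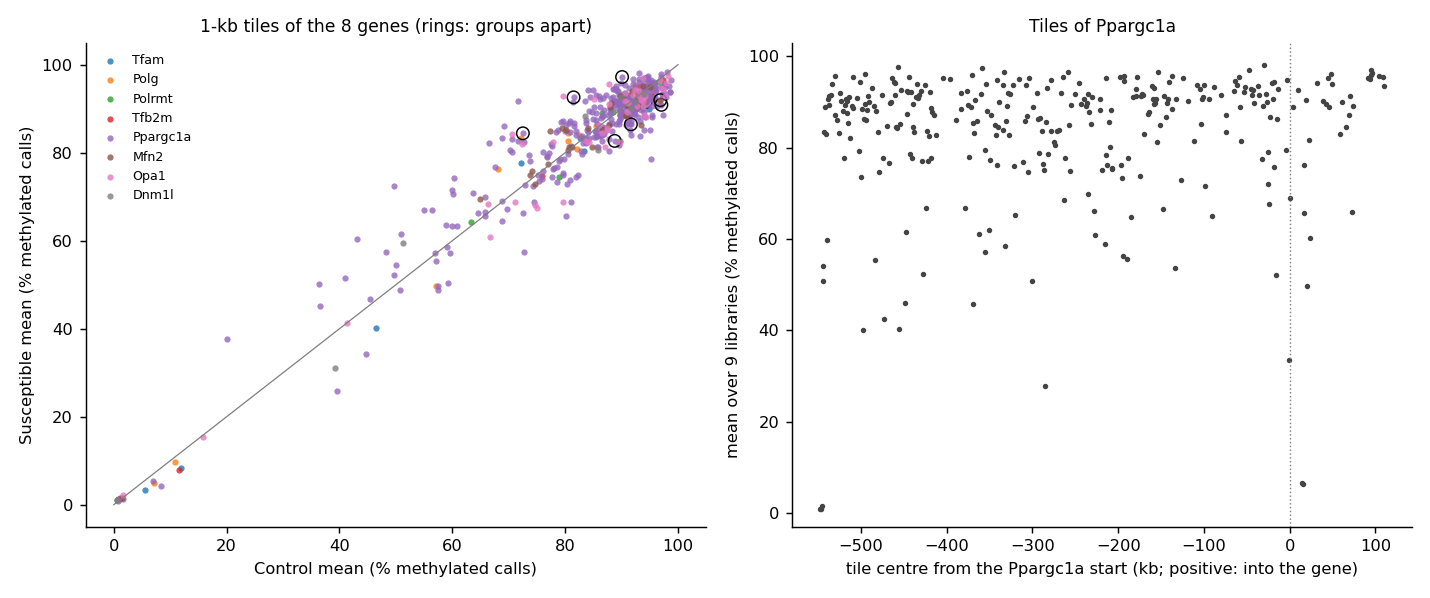
Left, the Susceptible mean against the Control mean (both % methylated calls) for the 465 tiles of the 8 genes, with the line of equal values and rings around the 8 tiles whose groups do not overlap. Right, the mean over all 9 libraries of each tile of Ppargc1a against the distance of its centre from the start in kb, positive into the gene, where the tiles near 1% lie at the upstream bound and a pair near 6% lies 14.2 and 15.2 kb after the start.

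The 54 other genes of the pathway were taken from 6 lists, and all 54 starts could be tested. None passed an adjusted p of 0.05 and in none were the groups apart (0 of 54, beside the 0% and 1.85% of all starts). By role, 0 of 17 genes of mitochondrial DNA replication and transcription passed, 0 of 8 of nucleotide supply, 0 of 9 biogenesis regulators, 0 of 4 of fusion, 0 of 7 of fission and 0 of 9 of transport and mitophagy. An unadjusted p under 0.05 was reached by 4 of the 54, beside 4.77% of all starts. They were Primpol, a primase-polymerase that restarts stalled forks (11.99% ± 2.51 and 6.95% ± 3.55), Rnaseh1, which removes RNA primers (4.61% ± 1.52 and 6.84% ± 1.10), Tfb1m, a ribosomal RNA methyltransferase (4.01% ± 1.13 and 2.60% ± 0.366), and Slc25a4, the ADP/ATP carrier (1.81% ± 0.554 and 2.75% ± 0.687). Tymp, thymidine phosphorylase, came next at 36.0% ± 6.40 and 42.0% ± 5.11, and the adjusted p of all 5 was 0.972.

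Of the 54 starts, 45 averaged below 10%, and their median of 3.83% lay under the 8.90% of all protein-coding genes tested and beside 6.51% for the 8 genes. The lowest was Yme1l1, an inner-membrane protease that cuts OPA1, at 0.750% ± 0.496 and 1.15% ± 0.387. The highest were Tymp and Mterf1a, a termination factor, at 33.4% ± 15.7 and 41.7% ± 15.3. The median difference of the 54 was 0.115 points, against -0.0883 over all genes tested and -1.196 for the 8 genes. These medians turned on few libraries and on the window. They were 0.0407, 0.0362 and -0.224 points without Control 5 and Control 8, and within 500 bp of the start 0.172, 0.0807 and 0.466. Leaving out 1 library gave -0.00854 (without Susceptible 6) to 0.175 (without Control 5) for the 54, -0.199 (without Susceptible 6) to 0.115 (without Susceptible 7) over all genes, and -1.58 (without Control 2) to -0.670 (without Control 5) for the 8.

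For each of the 8 genes, the gene on another chromosome whose body level followed it most closely over the 9 libraries was found by Pearson r, as a description of points that share their libraries and depth. These were Gm40164 for Tfam (r = 0.950), Tfdp2 for Polg (0.967), Tgfbr2 for Polrmt (0.969), Fam83d for Tfb2m (0.965), Dok3 for Ppargc1a (0.988), 1700007J10Rik for Mfn2 (0.972), Tmem167 for Opa1 (0.980) and Gm36101 for Dnm1l (0.919). From 7 of 31366 genes compared for Dnm1l to 173 of 30372 for Ppargc1a exceeded an r of 0.9. Each named gene had the highest r of the 29920 to 31366 compared, so a high r alone does not set it apart. Whether any match exceeds what so many comparisons give was not tested.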

How the data were processed

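Whole-genome bisulfite libraries from nucleus accumbens, 5 Control and 4 Susceptible, were used as deposited. Per the file headers, each file lists cytosines with their coverage, a count of calls that the authors did not normalise, and the percent of C and of T among the calls. The submitters' processing notes name Bismark, Bowtie, Picard and mm10, and no source used here gives the steps or settings. Coverage times the percent of C gave the methylated calls, and both strands of a CpG were added. The files list no cytosine under 10 calls, so the totals are not the full depth.

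Gene bounds and starts came from RefSeq tables of GRCm38.p6, the start from the promoter table for 26794 genes and from the CpG-richer end for the other 7534. All 326400 listed CpGs inside these promoters fell on a CG of the RefSeq sequences. Strand and exons beyond that were not used. Start windows reach 1000 bp to each side, tiles are 1000 bp, and a feature needed 3 CpGs and 20 calls in every library. Each feature of the whole table was tested by F test of the group term in a quasi-binomial logistic model on methylated and unmethylated calls, with the dispersion shrunk toward a common value as limma's squeezeVar does and not let below 1, and p-values were adjusted over all features by Benjamini-Hochberg. The threshold was an adjusted p under 0.05, and odds ratios carry 95% intervals of the same model. The model was tested on simulated data and against limma 3.58.1 in R 4.3.3. The work used Python 3.11.15, numpy 2.4.6, scipy 1.17.1, pyarrow 21.0.0 and matplotlib 3.10.9. Groups are called apart where no library of one lies within the range of the other. Levels are means of library levels ± SD, and the mitochondrial level was compared by a two-sided exact permutation test.

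The 8 genes, 6 pathway lists (replication and transcription, nucleotide supply, biogenesis regulators, fusion, fission, transport and mitophagy) and 6 cell type lists (striatal and cortical projection neurons, oligodendrocytes, astrocytes, microglia, endothelium) were chosen with earlier results of these data known. Named were all 8 genes, for each its tile of smallest p, the 5 tiles with the largest difference among those apart, the 5 pathway genes of smallest p with the highest and lowest starts, and for each gene the most alike gene on another chromosome. The window of 250 bp before the start, the class of promoters below 3%, the upstream bound of Ppargc1a, the 250 bp before each upstream bound and the outermost start were added after seeing the data. Alternatives changed the test, moderation, call and feature minimums, CpGs used, window, tile origin, depth covariate, libraries and block. Same-numbered libraries (2 and 3) are given no shared animal, litter or day by the labels.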

Additional observations from a re-analysis of the deposited data

Results flagged for a closer look

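In 7 of 70 sets of values of 1 group, a single library stood farther from the rest than Dixon's limit allows. A rate of about 1 in 20 by chance holds only for independent sets. These sets share the same 9 libraries, and those of tiles were picked by their values in these data. The 7 of 70 can therefore not be set against that rate. At the Mfn2 start Control 5 read 16.7%, against 8.41 to 10.1% in the other Control libraries. Over the Polg body Susceptible 6 read 53.3%, against 49.2 to 49.6% in the other Susceptible libraries. In the 250 bp before the start, Control 4 read 1.96% at Polrmt, against 0 to 0.515% in the other Control libraries. The 0% of Control 8 there rests on 109 calls and allows up to 2.75%, so it does not exclude the value of Control 4. The 0% of Control 3 and that of Control 5 allow less than 1.96%. In the same window of Tfb2m, Susceptible 3 read 2.04%, against 1.72 to 1.76% in the other Susceptible libraries. In Ppargc1a, Susceptible 2 read 98.4% in the tile at position 51619001 of chromosome 5, against 96.7 to 96.9%. Control 4 read 65.7% in the tile at 51858001, against 82.7 to 88.7% in its group, and Susceptible 6 read 76.5% in the tile at 52061001, against 84.1 to 85.4%.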

How the results depend on the processing

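No start window or body of the 8 genes passed an adjusted p of 0.05 under any alternative run, and the mitochondrial difference stayed at 8.41 points or more. Genome-wide, 0 tiles passed, except that without Control 4 there was 1 (smallest adjusted p 0.0370), in none of the 8 genes, so leaving out 1 library gave 0 to 1. Without Control 5 and Control 8 the class of promoters below 3% differed by 0.190 points with groups apart. The result was weaker (exact permutation p 0.0571, on fewer splits and not the smallest that they can give). Without those 2 libraries the sign turned at the Tfam start (0.252), the Ppargc1a body (0.178) and before Polg (0.151). Leaving out 1 library gave differences of -1.23 to 0.435 at the Dnm1l start, -0.0368 to 0.245 at the Tfb2m start, -0.884 to 0.577 over the Ppargc1a body, -4.61 to 0.0142 over the Tfb2m body and -0.537 to 0.331 before Polg. Starts within 500 bp turned at Tfam (0.469), Polrmt (0.413), Ppargc1a (0.719), Mfn2 (0.0254), Opa1 (0.668) and Dnm1l (0.463), and within 2000 bp at Polg (-2.90) and Tfb2m (-2.14). In the 250 bp before the start they turned at Tfam (0.749), Polg (-0.208), Polrmt (1.26), Opa1 (1.31) and Dnm1l (0.816), and the outermost start of Dnm1l gave 0.340. At 20 calls per cytosine the sign turned at the starts of Tfb2m (-0.0402), Ppargc1a (3.29) and Mfn2 (1.05) and before Opa1 (-0.972). With CpGs listed in all 9 libraries and their calls pooled, it turned at the starts of Tfam (0.509), Ppargc1a (1.13) and Dnm1l (0.288). It also turned over the bodies of Tfb2m (0.490) and Ppargc1a (0.404), whereas with each such CpG weighted equally the Tfb2m body gave -1.80. Over the part of the body from 1000 bp after the start on, it turned at Tfam (0.282). Beyond which CpGs and libraries entered, the cause was not tested. With replicates 2 and 3 as a block, 0 starts, bodies and tiles passed, and the sign turned at the starts of Tfam (0.714), Polg (-0.121) and Opa1 (0.0481), over the Mfn2 body (-0.841), in the tiles of Tfam (1.12) and Polrmt (0.291) and before Polg (0.287). The mitochondrial difference of these pairs was 11.9 points. Deviations of the same-numbered libraries correlated at 0.0258 and -0.0171 over tiles. Those of other pairs ran from -0.0954 (Control 4 with Susceptible 2) to 0.132 (Control 4 with Susceptible 7). Whether the numbers pair the samples cannot be told from these values.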
